A study of Mus musculus with 7 samples.

Results

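The last step of a stepwise differentiation of mouse embryonic stem cells was described here: day 6, after 48 h with basic FGF, against day 4, the end of primitive streak induction. These are 3 of the 7 libraries of the series, 2 from day 4 and 1 from day 6, and the comparison covers the 21813 genes above 0 in at least 1 of the 7. All libraries come from the Bry-GFP line, in which GFP reports on the Brachyury gene T. The labels do not say whether it is a single clone. The cells had been kept on fibroblast feeders with serum and LIF, then moved off feeders into serum-free suspension for 48 h (75000 cells per mL), in which embryoid bodies form. Both day 4 libraries come from aggregates that had then spent 48 h with 9 ng/mL Activin A, 25 ng/mL Wnt3a and 150 ng/mL Noggin. The day 6 library comes from aggregates moved out of those factors into the same serum-free base medium with basic FGF at 10 ng/mL for another 48 h. Time, the removal of Noggin, Wnt3a and Activin A and the addition of basic FGF thus changed together between the days and cannot be told apart. The day 4 libraries are labelled as biological replicates, and day 6 has no replicate.

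Pluripotent cells are held in that state by a small set of transcription factors, with Pou5f1 (Oct4), Nanog and Sox2 at their centre. In the embryo, Nodal, Wnt and FGF signals turn epiblast cells into primitive streak, which gives mesoderm and endoderm, while epiblast cells away from these signals become neural plate under Sox1 and Sox2. Basic FGF signals through receptor tyrosine kinases to ERK, whose response genes include the Sprouty and Dusp feedback inhibitors and the Etv transcription factors. In the neural tube, Sonic hedgehog from the notochord and floor plate sets ventral identity and BMP and Wnt set dorsal identity, and proneural factors then drive progenitors into neurons.

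Promoters of a pair of genes that fell and of the gene with the largest rise above the minimum level are shown first, since the results turn on these genes. Each line gives the 250 bases before the RefSeq start of the gene on its own strand (GRCm38.p6), with a short motif in capitals, searched on both strands.
Nanog, chr6:122707239-122707488, plus strand: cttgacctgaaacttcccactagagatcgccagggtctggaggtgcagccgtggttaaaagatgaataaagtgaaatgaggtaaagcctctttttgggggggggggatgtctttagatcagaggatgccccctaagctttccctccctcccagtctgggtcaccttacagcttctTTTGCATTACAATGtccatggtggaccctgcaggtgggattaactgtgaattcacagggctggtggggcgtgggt
Pou5f1, chr17:35505782-35506031, plus strand: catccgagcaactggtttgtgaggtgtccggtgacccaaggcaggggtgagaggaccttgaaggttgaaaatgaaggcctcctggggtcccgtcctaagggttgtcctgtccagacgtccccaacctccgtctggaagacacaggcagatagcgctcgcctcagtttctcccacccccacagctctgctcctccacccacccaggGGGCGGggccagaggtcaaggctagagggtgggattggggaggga
Isl1, chr13:116309689-116309938, minus strand: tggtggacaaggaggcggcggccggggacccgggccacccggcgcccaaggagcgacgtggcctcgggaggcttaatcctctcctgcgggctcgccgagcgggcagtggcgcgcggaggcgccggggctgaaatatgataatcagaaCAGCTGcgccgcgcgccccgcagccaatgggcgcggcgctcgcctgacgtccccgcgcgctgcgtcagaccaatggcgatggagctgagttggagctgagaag
In the Nanog promoter the capitals mark an octamer and a Sox site side by side (the OCT-SOX composite as it is spelled here, with any base between both sites), starting at -75 from the start of the gene. This composite stood in 1 of the 14127 promoters of tested genes searched in windows of this length (0.01%), which is Nanog itself. The spelling fits the Nanog site at every fixed base and allowed no other mismatch. Variant sites went uncounted, so the share does not measure how rare such composites are. In the Pou5f1 promoter the capitals mark a GC box, GGGCGG, at -45. In the Isl1 promoter they mark an E-box, CAGCTG, at -103. The GC box stood in 50.34% and this E-box in 12.66% of the 14127 promoters, so neither is rare. Among the genes that passed, the GC box stood in 64.72% of 513 promoters of genes that fell and 56.38% of 188 promoters of genes that rose. The E-box stood in 10.72% and 8.51% of them, in that order. Whether these shares follow the level or GC content of the genes was not tested. A match is a description of the letters and not evidence of binding.

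Levels are given as log2 of 1 plus scaled reads, and values set between days are differences on that scale, where a difference of 1 is a doubling and changes of low genes are understated. Where 3 levels of a gene stand together, they are those of day 4 replicate 1, day 4 replicate 2 and day 6, in that order, and a change written from a pair of levels to another follows the same order. The day 4 libraries held roughly 2910000 and 4610000 reads and the day 6 library 3300000, judged from the size of the smallest steps between low values. A level of 2.29, 1.78 and 2.14 is then worth 3 reads in day 4 replicate 1, day 4 replicate 2 and day 6, and lower levels were treated as at the limit of detection. Across the 11800 genes with a mean level over all 7 libraries of at least 3.46 (10 scaled reads) the day 4 libraries correlated with each other at 0.96 and with day 6 at 0.885 and 0.888 (Pearson, across genes, which are not independent replicates). The day 4 replicates lay a median of 0.25 apart in those genes, and day 6 lay a median of 0.53 from their mean. Exact zeros need care. The glycolysis gene Gapdh, needed in all cells, stood at 3.51 and 7.08 in the day 4 libraries and at 0 in the day 6 library, so a 0 may mark a failed estimate. Such genes are only said to be listed at 0, and no fold is given.

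Of the 21813 genes, 972 (4.46%) passed the test of day 6 against day 4, 278 higher (1.27%) and 694 lower (3.18%). Among them, 65 of the 278 were at 0 in both day 4 libraries and 57 of the 694 at 0 on day 6. The test was limma on all 7 libraries with p-values adjusted by the Benjamini-Hochberg method (threshold 0.05), and the spread of the single day 6 library is assumed to equal that of the other days. By a second rule with no test, day 6 lay beyond the day 4 spread in 3714 genes (17.0%), 1817 higher (8.33%) and 1897 lower (8.7%). That rule asks for a day 6 level outside both day 4 libraries, at least 1 from the nearer and farther from it than the day 4 libraries are from each other. Both rules named 806 of the 972 genes in the same direction. Day 6 lay above both day 4 libraries, by any amount, in 38.0% of genes and below both in 29.1%. The shares in this paragraph are those to set beside the counts of every list below. No gene passed without day 4 replicate 1, day 4 replicate 2, day 0 replicate 1 or day 0 replicate 2, where 4589, 4961, 4559 and 4549 genes had an unadjusted p under 0.05 against 5513 with all libraries, and 256 and 295 genes passed without day 2 replicate 1 and 2.

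**Figure D1:**
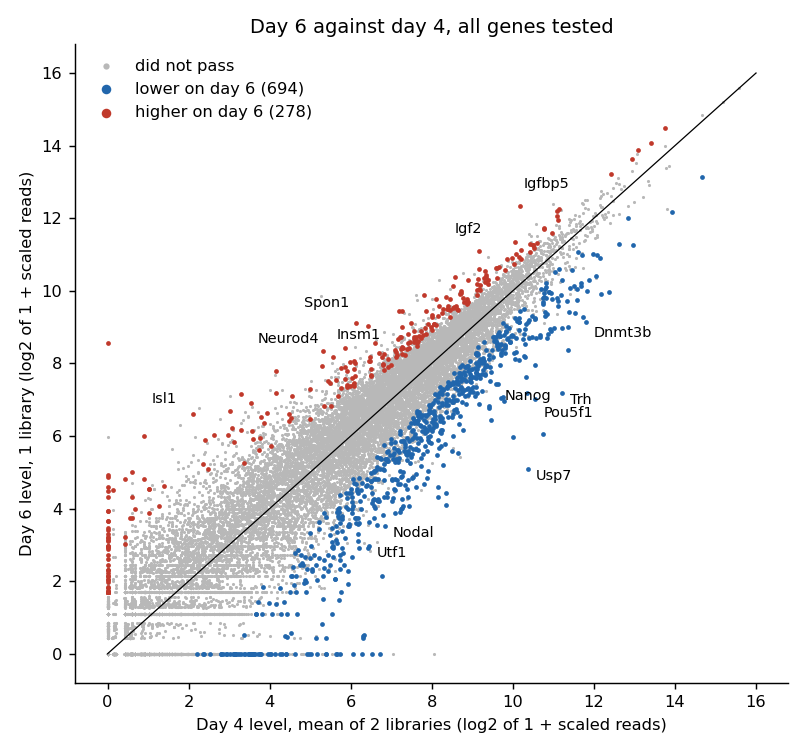
Level of each tested gene on day 6 (1 library, vertical axis) against its mean in the 2 day 4 libraries (horizontal axis), both in log2 of 1 plus scaled reads, with genes that passed in red (278 higher) and blue (694 lower). Pou5f1, Dnmt3b and Trh stand below the line of equality in the upper range, Isl1, Neurod4 and Spon1 above it, and a row of genes listed at 0 on day 6 lies on the lower axis.

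The difference between the days also followed the GC content of the transcript. Over 11323 genes Spearman's rho between GC content and day 6 minus day 4 was -0.573, given as a description. For replicate 1 minus replicate 2 of the same day it was 0.252 on day 4, 0.544 on day 2 and -0.166 on day 0. Replicates of day 2 thus differed along GC content about as strongly. The sign of a difference between replicates depends on their numbering and carries no meaning here. In 10 groups of genes ordered by GC content the median difference ran from 0.52 in the lowest to -0.97 in the highest. Day 4 replicate 1 minus replicate 2 ran from -0.14 to 0.22. Genes that rose had a median GC content of 43.9% and genes that fell one of 55.0%, against 49.3% for all genes at or above the minimum level. On levels corrected for GC content within each library, a correction chosen after the data were seen, 680 of 20614 genes passed (3.3%), 167 higher (0.81%) and 513 lower (2.49%). Of the 934 calls that had a GC value, 488 passed in the same direction in both fits and 0 in opposite directions. The part of GC content in the single results was not tested, and corrected values stand beside most lists below.

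**Figure D2:**
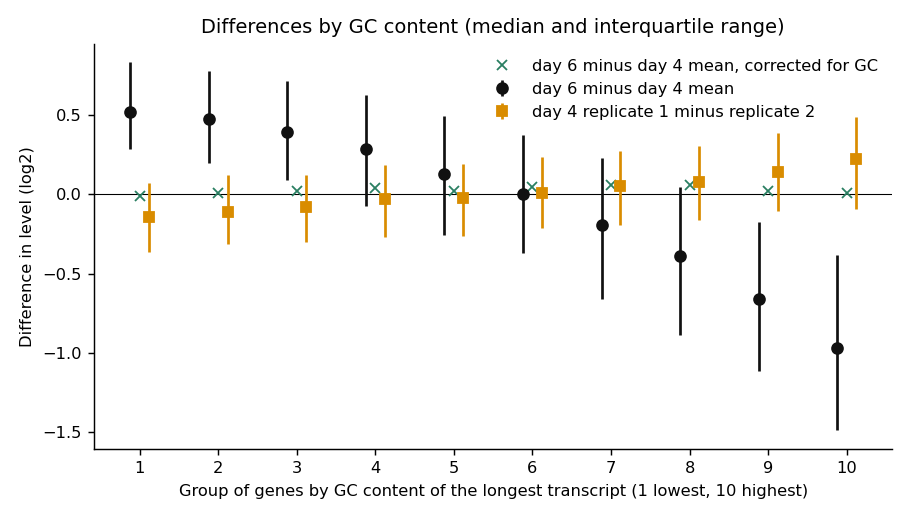
Median difference (log2, points) with its interquartile range (bars) in 10 groups of genes by GC content of the longest transcript, for day 6 minus the day 4 mean (black), the 2 day 4 replicates (orange) and day 6 minus day 4 on corrected levels (green crosses). The black points fall from 0.52 to -0.97 while the corrected medians stay between -0.01 and 0.06.

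Core pluripotency genes were lower on day 6. Of 15 genes 11 fell and 0 rose, with a median difference of -1.79 (the median over all genes tested was 0.00), and day 6 lay below both day 4 libraries in 13 of 15. Pou5f1, the Oct4 gene (chromosome 17, 35506018 to 35510772, plus strand, protein-coding), stood at 10.46 and 10.64 on day 4 and at 7.02 on day 6. That is a fall of 11.5-fold from a day 4 mean of 10.55 ± 0.13 (SD, n = 2; log2 difference -3.53, SE 0.19, adjusted p = 0.00367). Nanog (chromosome 6, 122707489 to 122714633, plus strand) stood at 9.51 and 9.67 on day 4 and 7.44 on day 6 (-2.15, SE 0.16, adjusted p = 0.00815). For both genes the day 4 libraries stood close together and day 6 lay far below them.

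Other members of the list fell with them. Utf1, a chromatin-associated factor of pluripotent cells, went from 6.43 and 6.46 to 2.97 (adjusted p = 0.0144). Tdgf1, the Nodal co-receptor Cripto, went from 8.67 and 8.85 to 6.16 (adjusted p = 0.0122). L1td1, an RNA-binding protein of pluripotent cells, went from 9.48 and 9.95 to 7.06 (adjusted p = 0.0107), and Tdh, the threonine dehydrogenase that mouse stem cells depend on, from 7.30 and 6.76 to 4.22 (adjusted p = 0.0121). In each of these genes day 6 lay below both day 4 libraries, as it did in 29.1% of all genes. Gdf3, Dppa2, Dppa4, Dnmt3l and Sall4 were the other members that fell, Sall4 by the least (-1.10, adjusted p = 0.046).

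Sox2, Lin28a, Zfp57 and Fgf4 did not pass. Sox2, which serves neural progenitors as well as pluripotent cells, was at 9.39, 9.45 and 10.32 (0.90, adjusted p = 0.0549), and it passed as a rise on corrected levels (0.98, adjusted p = 0.0344). Lin28a, an inhibitor of let-7 maturation, was at 11.30, 11.47 and 11.14 (adjusted p = 0.287), and Zfp57, a guardian of imprints, at 7.75, 7.90 and 8.32 (adjusted p = 0.16). Fgf4 had day 4 levels of 5.83 and 6.73 and a day 6 level of 4.76 (adjusted p = 0.0642). On corrected levels the list had 10 members lower and 1 higher, at a median of -2.19. In bulk RNA, fewer cells of a type and less RNA per cell cannot be told apart, here and in all lists below.

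Naive pluripotency genes had 6 of 15 members lower and 0 higher, at a median of -1.18 (5 lower and 0 higher, median -1.12, on corrected levels). Zfp42 (Rex1), a marker of the naive state, fell from 7.25 and 7.23 to 5.86 (-1.38, SE 0.19, adjusted p = 0.0222). Esrrb, a nuclear receptor of that state, fell from 7.64 and 7.48 to 5.98 (adjusted p = 0.0339), and Dppa5a from 10.31 and 10.01 to 8.09 (adjusted p = 0.0144). Klf2 (5.60 and 5.70 to 3.51) passed without correction only, with an adjusted p of 0.117 on corrected levels. Tcl1 ended at 1.10, the level of 1 read, and Fbxo15 also fell. Klf4, Tbx3 and Stat3 were at or above their day 4 means and did not pass (adjusted p = 0.59, 0.289 and 0.894).

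Genes of the post-implantation epiblast were lower as well, 7 of 12 with 0 higher, at a median of -1.69, and all 12 lay below both day 4 libraries (7 lower and 0 higher, median -1.27, on corrected levels). Dnmt3b, the de novo DNA methyltransferase of the epiblast (chromosome 2, 153649450 to 153687730, plus strand), fell 6.31-fold from 11.70 and 11.89 to 9.14 (-2.66, SE 0.13, adjusted p = 0.00367). Pim2, a serine/threonine kinase, fell from 11.27 and 11.46 to 8.38 (adjusted p = 0.00757). Lef1, a mediator of Wnt signals, fell from 7.47 and 7.27 to 5.56 (adjusted p = 0.0188) and Sall2 from 7.17 and 6.94 to 5.47 (adjusted p = 0.0348). Fgf5, the growth factor that marks this stage, was at 8.42, 8.63 and 5.67. It missed the threshold (-2.85, adjusted p = 0.0652) and passed on corrected levels (-3.07, adjusted p = 0.0452). Otx2, at 8.88, 8.85 and 8.31, did not pass (adjusted p = 0.453), and Foxd3 was listed at 0 on day 6 after 3.75 and 3.25.

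**Figure D3:**
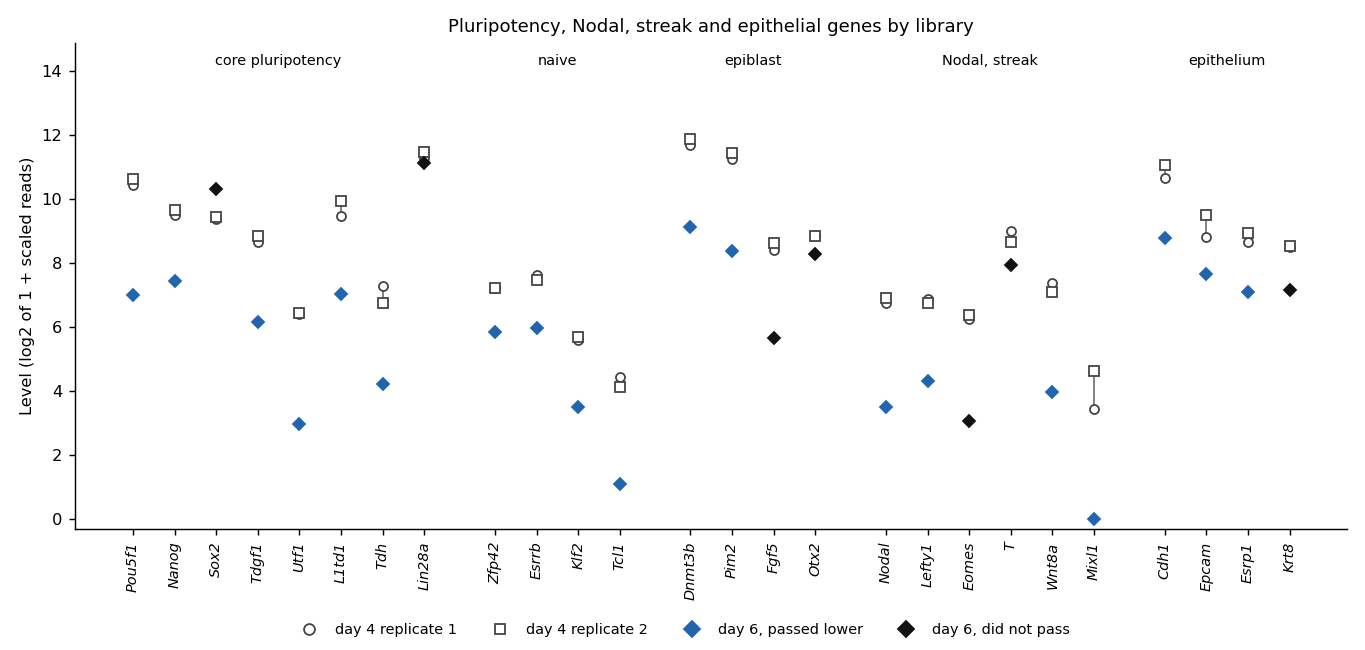
Levels (log2 of 1 plus scaled reads, vertical axis) of pluripotency, epiblast, Nodal, streak and epithelial genes in day 4 replicate 1 (open circles), day 4 replicate 2 (open squares) and day 6 (diamonds, blue where the gene passed lower and black where it did not pass). Day 6 lies below both day 4 libraries in every gene shown except Sox2, and Mixl1 is listed at 0 on day 6.

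Writers and keepers of DNA methylation moved with the epiblast list, 5 of 10 lower and 0 higher at a median of -0.81, with Dnmt3b on both lists. Dnmt3l, the partner of the de novo enzymes, fell from 5.47 and 5.61 to 2.95 (adjusted p = 0.0187). Dnmt1, the maintenance enzyme (-0.93, adjusted p = 0.0457), its partner Uhrf1 (-0.93, adjusted p = 0.0483) and Trim28 (-1.40, adjusted p = 0.0204) passed without correction and not on corrected levels (adjusted p = 0.0805, 0.0835 and 0.333). Tet1, an oxidase of methylated cytosine, did the reverse, with -0.69 (adjusted p = 0.0547) and -1.11 on corrected levels (adjusted p = 0.00886). The corrected median of the list was -0.45, with 3 lower and 0 higher. Of 14 Polycomb genes 2 fell, Phc1 (10.55 and 10.38 to 8.73, adjusted p = 0.0104) and Cbx7 (8.57 and 8.25 to 6.53, adjusted p = 0.033), and the list's median was -0.12 (2 lower, 0 higher and -0.26 on corrected levels).

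Nodal pathway genes, which act in the streak, were lower. Of 13 genes 4 fell and 1 rose, day 6 lay below both day 4 libraries in 11, and the median was -1.01 (4 lower, 0 higher and -1.27 on corrected levels). Nodal itself, the ligand (chromosome 10, 61417972 to 61425338, plus strand), fell 10.1-fold from 6.75 and 6.92 to 3.51 (-3.33, SE 0.22, adjusted p = 0.00657). Lefty1, its secreted inhibitor, fell from 6.89 and 6.75 to 4.33 (adjusted p = 0.0216). Tdgf1, described above, and Skil, a feedback repressor of Smad signalling, also fell. Acvr2a, an activin receptor, was the member that rose, from 7.95 and 7.87 to 9.09 (adjusted p = 0.0339; adjusted p = 0.095 on corrected levels). Cer1, an inhibitor of Nodal, was at 7.76, 7.70 and 4.51 and did not pass (adjusted p = 0.0664), nor did Lefty2 (adjusted p = 0.0586).

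Primitive streak genes had 3 of 13 members lower and 0 higher, at a median of -2.46, and 7 of 13 were below the day 4 spread (2 lower, 0 higher and a median of -2.20 on corrected levels). They were Nodal, Mixl1, listed at 0 on day 6 after 3.45 and 4.63, and Evx1, listed at 0 after 2.94 and 2.94. T, the Brachyury gene, stayed closer, at 9.02 and 8.67 on day 4 and 7.95 on day 6 (-0.89, adjusted p = 0.715). Eomes, a factor of streak and early endoderm, was at 6.28, 6.38 and 3.06 (adjusted p = 0.0669). Fgf8, a streak growth factor, was at 5.52 and 4.99 and then at 1.82, under the level of 3 reads (adjusted p = 0.0536). Members at 0 in at least 1 of the 3 libraries made up 6 of the 13.

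Genes of caudal and neuromesodermal progenitors, which extend the trunk, had 2 of 14 lower, Wnt8a and Evx1, with a median of -1.50 (1 lower, median -0.83, on corrected levels). Wnt8a, a streak Wnt ligand, fell from 7.38 and 7.12 to 3.98 (adjusted p = 0.0169). Nkx1-2 was at 5.91, 6.85 and 3.93 (adjusted p = 0.105). Cdx2 was at 3.61, 2.19 and 1.10, so little of it was left to read (adjusted p = 0.251). Sp8, Cyp26a1 and Gdf11 were above both day 4 libraries and did not pass.

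In the node, cilia and endoderm lists the genes that passed were lower, where 3.18% of all genes passed lower. In the notochord and node list 1 of 12 fell, at a median of -0.52 (0 passed, median -0.48, on corrected levels). It was Foxj1, the regulator of motile cilia, with 6.32 and 5.34 on day 4 and 2.45 on day 6 (-3.38, adjusted p = 0.0457; adjusted p = 0.0809 on corrected levels). Noto, the notochord homeobox gene, was at 5.79, 4.13 and 2.72 (adjusted p = 0.156), while Foxa2 was at 6.65, 6.78 and 7.47 (adjusted p = 0.7). Of 16 motile cilia genes Foxj1 alone passed, 10 lay below both day 4 libraries and 4 above both, at a median of -0.65 (0 passed, median -0.62, on corrected levels). Among 14 definitive endoderm genes, with a median of -0.65 (1 lower and -0.35 on corrected levels), 1 fell, Trh, the thyrotropin-releasing hormone precursor (chromosome 6, 92242061 to 92244650, minus strand), from 11.44 and 10.96 to 7.18 (-4.02, SE 0.35, adjusted p = 0.0114). Sox17, an endoderm factor, was at 5.69, 5.74 and 4.33 (adjusted p = 0.312). In the visceral endoderm list Apoe fell from 8.64 and 8.73 to 6.56 (adjusted p = 0.0219), while Afp, Apoa2 and Apoa4 were listed at 0 in all 3 libraries.

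Epithelial genes were lower and mesenchymal genes mixed to higher. Of 13 epithelial genes 5 fell and 0 rose, 11 were below the day 4 spread, and 12 lay below both day 4 libraries, at a median of -1.66 (3 lower, 0 higher and -1.16 on corrected levels). Cdh1, E-cadherin, fell from 10.67 and 11.09 to 8.80 (-2.08, SE 0.21, adjusted p = 0.0144). Esrp1, which splices epithelial isoforms, fell from 8.67 and 8.95 to 7.11 (adjusted p = 0.0227), Grhl2, an epithelial transcription factor, from 6.50 and 6.29 to 4.64 (adjusted p = 0.0334), Epcam from 8.82 and 9.50 to 7.68 (adjusted p = 0.0483), and the tight junction gene Cldn7 from 6.32 and 6.96 to 4.25 (adjusted p = 0.043). Krt8 and Krt18, keratins of simple epithelia, were at 8.51, 8.53 and 7.16 and at 8.99, 8.99 and 7.94 and did not pass (adjusted p = 0.162 and 0.258).

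In the mesenchymal list 2 of 10 rose, at a median of 1.15, and neither passed on corrected levels (median 0.79). Cdh11, a mesenchymal cadherin, went from 6.73 and 6.22 to 8.06 (adjusted p = 0.0397) and Prrx1, a limb and craniofacial mesenchyme factor, from 4.12 and 3.03 to 6.15 (adjusted p = 0.0443). Cdh2, N-cadherin, was at 10.24, 9.88 and 10.66 (adjusted p = 0.242) and Zeb1 at 7.90, 7.19 and 8.97 (adjusted p = 0.0577). Laminin and basement membrane genes had 5 of 11 lower and 0 higher at a median of -0.94 (4 lower and -0.26 on corrected levels). Lama5 fell from 9.73 and 9.18 to 6.44 (adjusted p = 0.0144), Hspg2, perlecan, from 8.65 and 8.35 to 5.59 (adjusted p = 0.0233), and Nid2, Lamb1 and Lamc1 also fell. Lama1, the early embryonic laminin chain, was at 8.68, 8.97 and 8.13 (adjusted p = 0.589). Among cadherins of neural tissue 1 of 11 rose, Pcdh18 (7.38 and 7.47 to 8.56, adjusted p = 0.038), and day 6 was above both day 4 libraries in 10 of 11. On corrected levels 0 of the 11 passed, at a median of 0.82 against 1.13 without correction.

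Ventral neural tube and floor plate genes were higher. Of 11 genes 3 passed higher and 0 lower, 2 of the 3 with a listed 0 in at least 1 day 4 library, 7 were above the day 4 spread and 10 lay above both day 4 libraries, at a median of 2.16 (4 higher, 0 lower and 2.60 on corrected levels). Spon1, the floor plate protein F-spondin (chromosome 7, 113765998 to 114043370, plus strand), rose 7.80-fold from 6.15 and 6.12 to 9.10 (2.96, SE 0.37, adjusted p = 0.0207). Ferd3l, a helix-loop-helix factor of the floor plate, had a listed 0 in each day 4 library and 2.97 on day 6 (adjusted p = 0.022).

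Shh, Nkx6-1, Foxa1, Nkx2-2 and Olig2 lay above both day 4 libraries on day 6, by unequal amounts, and none passed without correction. Shh and Foxa1 are also members of the notochord and node list, whose median was -0.52. Shh, the hedgehog ligand of notochord and floor plate, was at 6.09, 5.52 and 7.99 (2.19, adjusted p = 0.284). Nkx6-1, a homeobox gene of ventral progenitors, was at 6.13 and 6.09 and then at 8.44 (adjusted p = 0.101), and it passed on corrected levels (3.29, adjusted p = 0.0368). Foxa1 was at 5.82, 5.18 and 7.63 (adjusted p = 0.275) and Nkx2-2 at 3.18, 2.94 and 5.22 (adjusted p = 0.17). Olig2, the motor neuron progenitor factor, stayed low at 1.83, 2.61 and 2.72 (adjusted p = 0.81).

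Dorsal genes went the other way, with 2 of 13 lower, 0 higher and a median of -0.69 (1 lower and -0.79 on corrected levels). Zic2, which the epiblast list holds too, fell from 8.15 and 8.43 to 6.38 (adjusted p = 0.0218; adjusted p = 0.214 on corrected levels). Pax7, a dorsal progenitor factor, was at 7.08, 6.37 and 5.15 (adjusted p = 0.102), and Msx3 at 6.08, 5.22 and 3.19 (adjusted p = 0.0928). Lmx1a, the roof plate factor, was higher on day 6, at 3.89, 2.99 and 6.12 (adjusted p = 0.0595). None of the 8 genes of the intermediate neural tube passed, and 0 had an unadjusted p under 0.05, at a median of 0.22. A test of ventral against dorsal genes was not made.

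Pan-neural progenitor genes were level or higher. Of 16 genes 1 rose, 0 fell and 12 lay above both day 4 libraries, at a median of 0.92 (5 higher, 0 lower and 0.97 on corrected levels). Slc1a3, the glutamate transporter of radial glia, rose from 7.30 and 7.24 to 9.01 (1.74, SE 0.28, adjusted p = 0.0296). Sox1, the early neural plate factor, was at 8.38, 8.23 and 9.02 (0.71, adjusted p = 0.226), and it passed on corrected levels (1.47, adjusted p = 0.0267). Pax6 was at 7.38, 6.91 and 8.08 (adjusted p = 0.131), Nes at 10.22, 10.17 and 10.32 (adjusted p = 0.711), and Fabp7 at 9.50, 8.58 and 10.46 (adjusted p = 0.369). Ptn, a growth factor, was the largest difference downwards, at 8.88, 8.74 and 7.85 (adjusted p = 0.1).

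**Figure D4:**
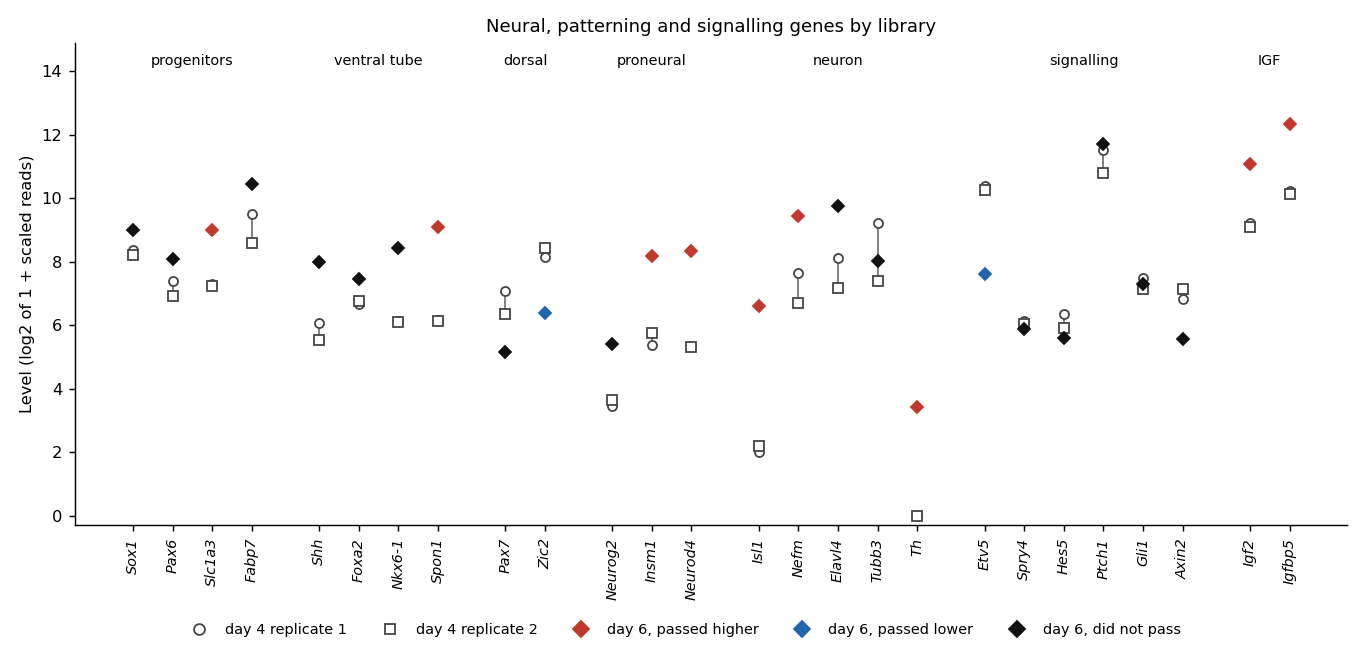
Levels (log2 of 1 plus scaled reads, vertical axis) of neural, patterning, signalling and IGF genes in day 4 replicate 1 (open circles), day 4 replicate 2 (open squares) and day 6 (diamonds, red where the gene passed higher, blue where it passed lower and black where it did not pass). Day 6 lies above both day 4 libraries in the ventral and proneural genes shown and below both in the dorsal ones, and Tubb3 on day 6 lies between its day 4 libraries.

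Proneural and neuronal transcription factors were mostly higher, but few passed, with 2 of 17 up, 0 down, 7 above the day 4 spread and 14 above both day 4 libraries, at a median of 1.41 (2 higher, 0 lower and 1.49 on corrected levels). Over all genes 1.27% passed higher, 8.33% were above the day 4 spread and 38.0% lay above both day 4 libraries. Neurod4, a neuronal helix-loop-helix factor (chromosome 10, 130268152 to 130280240, minus strand), rose 8.19-fold from 5.33 and 5.30 to 8.35 (3.03, SE 0.48, adjusted p = 0.0277). Insm1, a zinc finger factor of newborn neurons, rose from 5.38 and 5.74 to 8.18 (adjusted p = 0.0268). Neurog2 was at 3.45, 3.65 and 5.39 (adjusted p = 0.119) and Neurog1 at 3.87, 4.26 and 5.98 (adjusted p = 0.101). Neurog3 was lower, at 3.90, 3.38 and 2.35 (adjusted p = 0.364), and Atoh1 stayed at 1.20, 0 and 0.

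Genes of neuron structure and synapse rose in 2 of 25 cases, with 0 down, 9 above the day 4 spread and 21 above both day 4 libraries, at a median of 1.36 (1 higher and 1.25 on corrected levels). Nefm, a neurofilament subunit, rose from 7.64 and 6.71 to 9.45 (adjusted p = 0.0476). Syt4, a synaptotagmin, rose from 2.90 and 3.36 to 5.83 (adjusted p = 0.0434; adjusted p = 0.0537 on corrected levels). The day 4 libraries themselves differed in this list: replicate 1 was above replicate 2 in 22 of 25 genes, by a median of 0.96. The same held for 12 of 17 proneural genes (median over the list 0.51), 15 of 20 neuron subtype factors (1.02), 9 of 12 transmitter genes (0.82) and 15 of 17 axon guidance genes (0.61). Tubb3, the neuronal tubulin, shows it, at 9.21 and 7.38 on day 4 and 8.02 on day 6 (adjusted p = 0.901), as does Dcx at 9.25, 7.09 and 10.31 (adjusted p = 0.166). Mapt, the tau gene, was at 4.85, 3.41 and 6.78 (adjusted p = 0.182) and Elavl4 at 8.12, 7.17 and 9.76 (adjusted p = 0.0805).

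Factors of neuron subtypes had 1 of 20 higher and 1 lower, at a median of 0.68 (1 higher, 0 lower and 1.02 on corrected levels). Isl1, a LIM homeobox gene of motor and sensory neurons and of heart progenitors (chromosome 13, 116298281 to 116309689, minus strand), rose from 2.01 and 2.19 to 6.60 (4.50, SE 0.60, adjusted p = 0.0219), starting in day 4 replicate 1 from under the level of 3 reads. Evx1, listed at 0 on day 6, is the member that passed lower. Lhx4 was at 2.94, 2.25 and 5.33 (adjusted p = 0.14) and Mnx1, of somatic motor neurons, at 1.83, 3.08 and 2.97 (adjusted p = 0.735). Transmitter genes had 1 of 12 higher, Th, the dopamine and noradrenaline enzyme, with a listed 0 in each day 4 library and 3.42 on day 6 (adjusted p = 0.0196). Gad2, for GABA, was at 4.69, 5.16 and 6.44 (adjusted p = 0.0931) and Slc17a6, for glutamate, at 4.36, 2.39 and 5.33 (adjusted p = 0.216). Among 17 axon guidance genes 2 rose, Sema3a (3.88 and 3.84 to 6.35, adjusted p = 0.0218) and its receptor Nrp2 (6.40 and 5.32 to 7.91, adjusted p = 0.0491), and 3 did on corrected levels, with Ntn1, netrin of the floor plate, added (adjusted p = 0.0118).

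Regional identity was mixed. Nkx2-1, a factor of the ventral forebrain, lung and thyroid, was the 1 of 14 forebrain and midbrain genes that passed, with a listed 0 in each day 4 library and 3.67 on day 6 (adjusted p = 0.0219). Six3 was at 3.50, 4.16 and 5.96 (adjusted p = 0.0965) and En2, of the midbrain, at 7.36, 6.40 and 6.50 (adjusted p = 0.699). None of 10 hindbrain genes passed (3 had an unadjusted p under 0.05, and 1 passed higher on corrected levels), with Egr2 at 5.60, 5.69 and 4.47 (adjusted p = 0.554). None of the Hox genes passed: 0 of 12 in groups 1 to 4 (median 0.45), 0 of 15 in groups 5 to 9 (median 0.35) and 0 of 10 in groups 10 to 13 (median 0.00). An unadjusted p under 0.05 was reached by 0, 1 and 0 of them. Hoxa2 and Hoxb3, of the hindbrain, were read at 6.84, 6.41 and 7.63 and at 6.76, 6.77 and 6.95 (adjusted p = 0.213 and 0.842). In the trunk groups 5 to 9, 11 of 15 genes were at 0 in at least 1 of the 3 libraries, so differences there were mostly not detectable at this depth. In the neural crest list Foxd3 alone passed, and Sox10, a defining crest and glia gene, was at 2.30, 0.86 and 1.72, under or near the level of 3 reads.

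Basic FGF was the factor added, and the response genes that passed were lower. Of 14 FGF and ERK response genes 3 fell, 0 rose, 10 lay below both day 4 libraries and 2 above both, at a median of -0.59 (2 lower, 0 higher and -0.42 on corrected levels). Etv5, an ETS factor induced by FGF (chromosome 16, 22381309 to 22439719, minus strand), fell 6.48-fold from 10.37 and 10.25 to 7.62 (-2.70, SE 0.15, adjusted p = 0.00367). Etv4, its relative, fell from 6.19 and 5.87 to 4.00 (adjusted p = 0.0209; adjusted p = 0.101 on corrected levels), and Il17rd, the FGF inhibitor Sef, from 10.24 and 9.86 to 8.13 (adjusted p = 0.0208). Flrt3, a membrane protein that binds FGF receptors, was the 1 member above the day 4 spread, at 6.41, 7.10 and 8.50, and did not pass. The feedback inhibitors Spry4 (6.13, 6.05 and 5.89) and Dusp6 (8.97, 8.88 and 8.73) did not pass (adjusted p = 0.727 and 0.722). None of 15 FGF ligands and receptors passed, and 6 had an unadjusted p under 0.05. Fgfr1, a receptor, was at 9.84, 9.62 and 9.00 (adjusted p = 0.146), Fgfr2 at 7.39, 7.27 and 8.25 (adjusted p = 0.179) and Fgfr3 at 5.05, 4.37 and 6.54 (adjusted p = 0.29).

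Wnt3a had been removed with Noggin and Activin A, and in the canonical Wnt response list 1 of 12 fell, Lef1, at a median of -0.68 that was 0.04 on corrected levels. Axin2, the feedback inhibitor induced by Wnt, was at 6.83, 7.13 and 5.55 (-1.43, adjusted p = 0.0745), and Tcf7 was at 8.66, 9.01 and 7.55 (adjusted p = 0.054). Ccnd1 was at 10.12, 10.03 and 10.44 (adjusted p = 0.26). Of 12 Wnt ligands Wnt8a alone passed, and Wnt5a, which signals in cell movement, was at 5.91, 4.85 and 7.17 (adjusted p = 0.0691). None of 8 Wnt antagonists passed (2 had an unadjusted p under 0.05), but on corrected levels Sfrp1 (10.45, 10.37 and 11.57) and Dkk3 (4.72, 4.58 and 6.36) did, with adjusted p = 0.0429 and 0.0433.

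Hedgehog and Notch genes lay on both sides of their day 4 levels. In the hedgehog list 1 of 14 rose and 0 fell, 3 were above and 1 below the day 4 spread, and the median was -0.01 (1 higher and 0.52 on corrected levels). Ptch1 and Gli1, both induced by the signal, were at 11.51, 10.79 and 11.72 and at 7.49, 7.13 and 7.29 (adjusted p = 0.314 and 1). None of 5 Notch ligands and 11 receptors and modulators passed (1 and 4 had an unadjusted p under 0.05), with Dll1 at 7.73, 7.09 and 7.69 (adjusted p = 0.847). Hes5, the Notch target of neural progenitors, was at 6.36, 5.90 and 5.59 (adjusted p = 0.747). Nrarp, another target, was listed at 0 on day 6 after 5.30 and 4.74 and was the 1 of 6 targets that passed, while 2 of the 6 were above the day 4 spread.

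BMP and retinoic acid lists had calls in both directions, where 4.46% of all genes passed in either. Fst, follistatin, which binds activin and BMPs, fell from 8.40 and 8.63 to 7.49 (adjusted p = 0.0412), the 1 call of 11 BMP ligands and antagonists. Id4 rose from 5.70 and 5.83 to 7.88 (adjusted p = 0.0357; adjusted p = 0.0749 on corrected levels), the 1 call of 9 BMP targets. Id1, a more direct target, was at 4.92, 5.25 and 5.43 (adjusted p = 0.587). Of 17 retinoic acid genes Meis2 rose (8.82 and 8.61 to 9.95, adjusted p = 0.0227), Rarg, a receptor, fell (7.40 and 7.31 to 5.69, adjusted p = 0.0262), and Dhrs3 was listed at 0 on day 6 after 3.53 and 3.60. Neither Meis2 nor Rarg passed on corrected levels (adjusted p = 0.065 and 0.0809).

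Among insulin-like growth factor genes, a ligand and a binding protein rose. Igf2, the fetal growth factor (chromosome 7, 142650766 to 142666816, minus strand), rose 3.80-fold from 9.22 and 9.11 to 11.09 (1.93, SE 0.24, adjusted p = 0.0205). Igfbp5, a binding protein of these factors, rose 4.49-fold from 10.23 and 10.12 to 12.34 (2.17, SE 0.28, adjusted p = 0.022). They were 2 of 12 genes of the list, 0 fell, and Igf1r was at 8.90, 8.19 and 7.86 (adjusted p = 0.236). In the list of imprinted growth genes 1 of 13 passed higher, Igf2, and 1 lower, Meg3 (10.72 and 10.86 to 10.05, adjusted p = 0.0333). Day 6 lay above both day 4 libraries in 11 of the 13, as it did in 38.0% of all genes. The list's median was 0.57 (3 higher, 2 lower and 0.41 on corrected levels). H19, which shares an imprinting control region with Igf2, was at 7.69, 7.48 and 9.09 (adjusted p = 0.0604) and passed on corrected levels (adjusted p = 0.0118), as did Cdkn1c, at 6.51, 6.23 and 8.34 (adjusted p = 0.0549, then 0.0235).

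Lists of markers of other cell types the aggregates could hold had at most 1 call in each direction. Of all genes, 1.27% passed higher and 3.18% lower. The median differences of the paraxial, sclerotome and surface ectoderm lists, given below, lay above that of pan-neural progenitors (0.92). Those of the blood (0.28), lateral plate (0.00) and feeder fibroblast (0.82) lists lay under it. Hbb-bh1, an embryonic globin, was at 0, 1.81 and 6.01 (adjusted p = 0.0317), while Flt1, a VEGF receptor, fell from 6.61 and 6.55 to 5.02 (adjusted p = 0.0478), and no other of the 16 blood and endothelium genes passed. Gata1 was at 2.64, 1.81 and 2.14. The list's summed level was 8.11 and 7.94 on day 4 and 8.37 on day 6. In the paraxial mesoderm list 1 of 13 rose, Foxc1 (2.30 and 2.65 to 5.09, adjusted p = 0.0487), and the median was 1.20, with Tbx6 at 3.29, 1.81 and 2.72 and Myod1 at 1.20, 0.86 and 1.10. None of 13 sclerotome and cartilage genes passed (6 had an unadjusted p under 0.05), but 5 were above the day 4 spread, at a median of 1.08, with Sox9 at 6.35, 5.50 and 6.89 (adjusted p = 0.246) and Pax1 at 0, 1.12 and 3.03 (adjusted p = 0.132). Among 14 lateral plate and cardiac genes Tbx20, of heart and motor neurons, rose from 2.79 and 3.17 to 6.03 (adjusted p = 0.0477), while Nkx2-5 and Hand2 were listed at 0 in all 3 libraries. Of 9 surface ectoderm and placode genes 1 passed higher, Tfap2c, at 0.88, 0.25 and 3.73 (adjusted p = 0.0338), 5 were above the day 4 spread and 7 above both day 4 libraries, at a median of 1.24. In the feeder fibroblast list Col5a2 rose (3.78 and 3.69 to 5.61, adjusted p = 0.0316), 12 others did not pass, and the summed level was 8.72, 8.65 and 9.06. Whether these cells had a part in the neural or matrix results was not tested. Xist was low throughout, at 4.22, 3.78 and 3.81 (adjusted p = 0.841).

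Proliferation genes were split. Of 11 mitosis genes 0 passed (3 had an unadjusted p under 0.05), at a median of -0.01, with Mki67 at 11.32, 11.02 and 11.42 (adjusted p = 0.53) and Ccnb1 at 10.79, 10.91 and 10.85 (adjusted p = 1). Of 12 DNA replication genes 5 fell and 0 rose, at a median of -0.98 (5 lower and -0.58 on corrected levels). Mcm5, part of the replicative helicase, fell from 10.62 and 10.46 to 9.22 (-1.32, SE 0.18, adjusted p = 0.0227). Mcm2, Mcm3, Mcm7 and the licensing factor Cdt1 fell too, of which Mcm7 and Cdt1 did not pass on corrected levels (adjusted p = 0.0537 and 0.673). Rrm2, a subunit of ribonucleotide reductase, was at 10.61, 10.76 and 10.91 (adjusted p = 0.462). Among cyclins and inhibitors Ccnd3 fell (8.40 and 8.33 to 7.32, adjusted p = 0.0483; adjusted p = 0.314 on corrected levels) and no other of 13 passed.

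Glycolysis genes were lower, 6 of 13 with 0 higher, at a median of -0.85 (4 of 12 lower, 0 higher and -0.71 on corrected levels). Pkm, pyruvate kinase, fell from 13.98 and 13.87 to 12.18 (-1.75, SE 0.18, adjusted p = 0.0144). Slc2a1, a glucose transporter, fell from 12.02 and 12.06 to 10.42 (adjusted p = 0.0281), Pfkl, phosphofructokinase, from 10.54 and 10.60 to 8.70 (adjusted p = 0.0227) and Eno1 from 11.59 and 12.18 to 10.31 (adjusted p = 0.0268; adjusted p = 0.234 on corrected levels). Aldoa and Ldha also fell. Pgk1 was at 10.48, 11.91 and 12.23 (adjusted p = 0.499), and day 6 lay between the day 4 libraries for Slc2a3 and Pgam1.

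**Figure D5:**
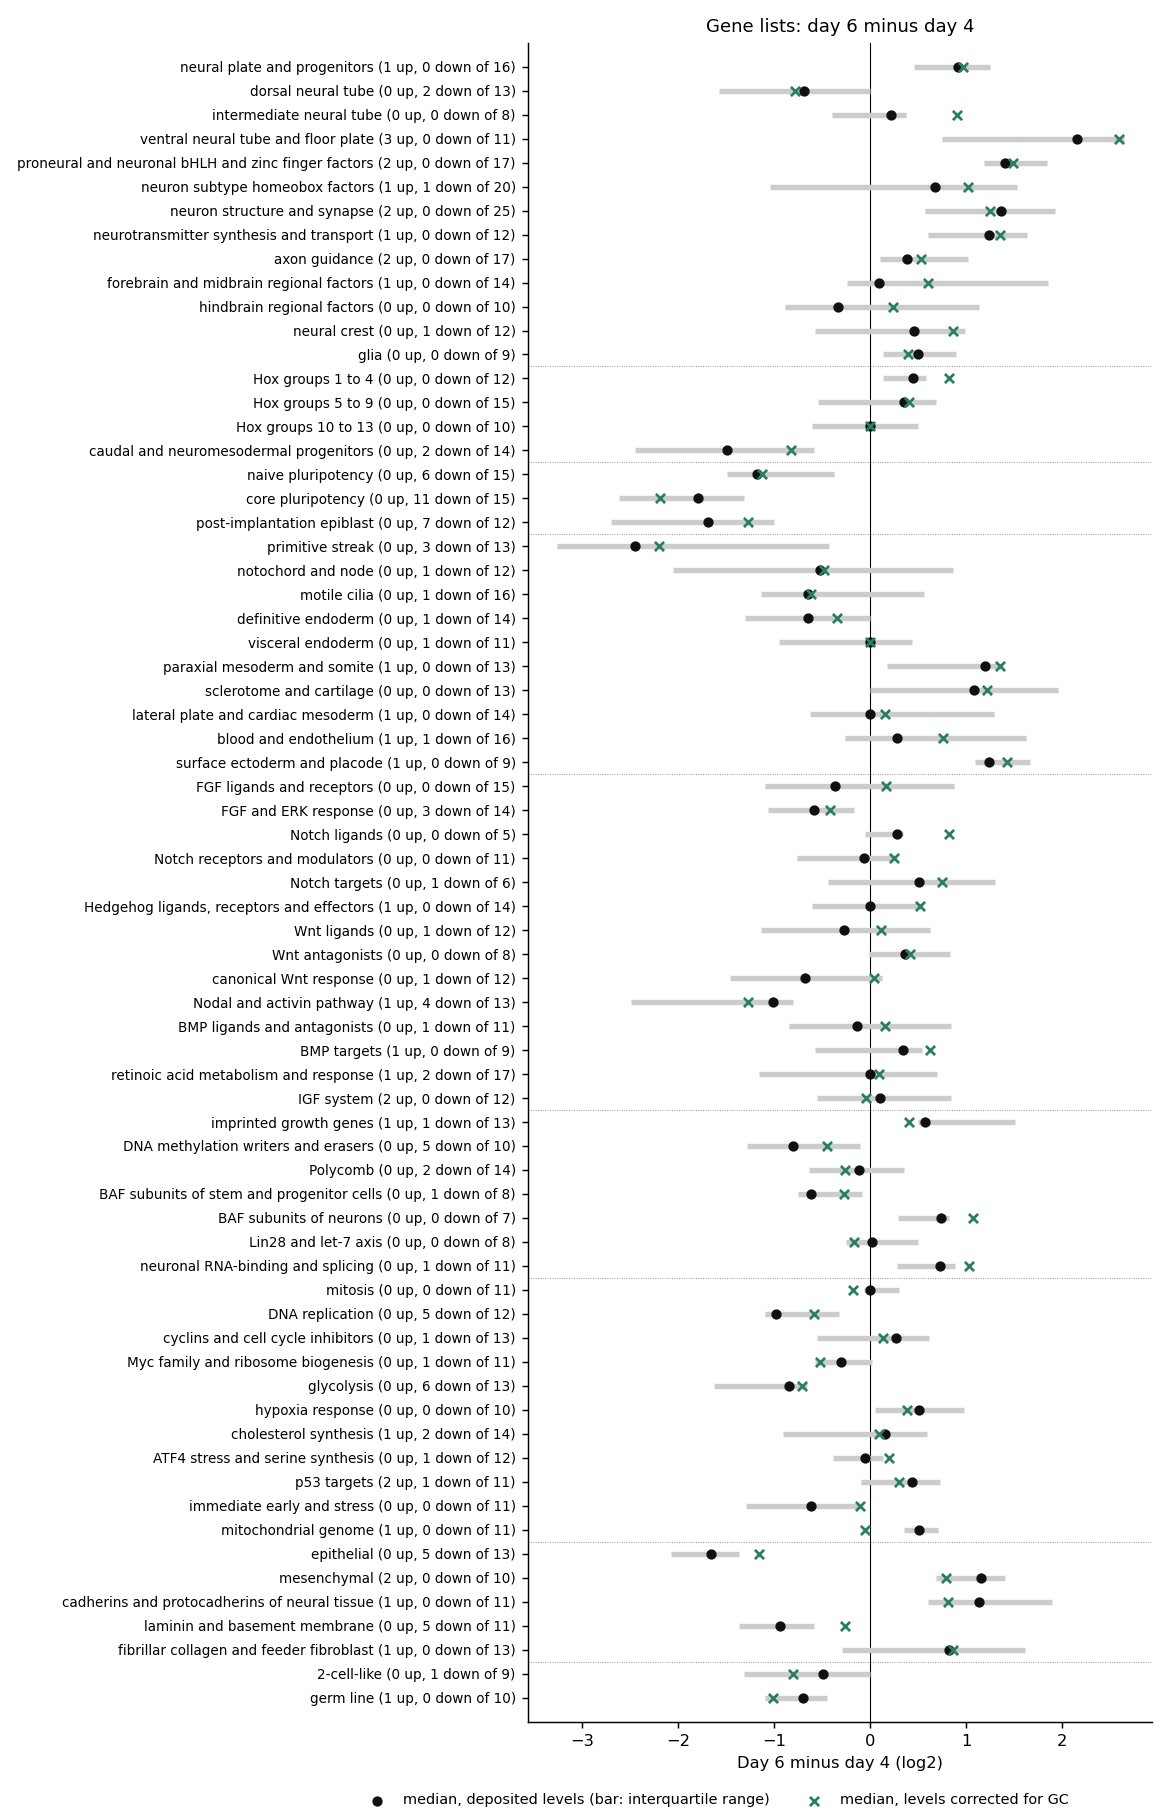
Median difference of day 6 from day 4 (log2) of each gene list, as black points with the interquartile range as a grey bar, and on levels corrected for GC content as green crosses, with the number of members that passed in each direction beside the name. The pluripotency, streak, Nodal, epithelial and glycolysis lists lie to the left of 0 on both scales, and the ventral neural tube, proneural and neuron structure lists to the right.

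By the rule for single genes, the 10 largest rises were Isl1, Rgs4, Scg2, Lrrn3, Sim1, Cldn11, Cd36, Edil3, Tbx20 and Neurod4, with differences from 4.50 to 3.03. Rgs4, a regulator of G-protein signalling in neurons, went from 3.70 and 2.89 to 7.16 (adjusted p = 0.0268). Scg2, secretogranin of secretory granules, went from 3.29 and 2.78 to 6.70 (adjusted p = 0.045). Sim1, a factor of hypothalamic and spinal neurons, went from 2.94 and 1.86 to 5.89 (adjusted p = 0.0483), and Cd36, a fatty acid receptor, from 3.87 and 3.21 to 6.92 (adjusted p = 0.0288). Scg2, Lrrn3, Sim1 and Tbx20 did not pass on corrected levels (adjusted p = 0.0541, 0.0554, 0.0906 and 0.082). All 10 had day 6 above both day 4 libraries, which the rule itself required. Isl1, Scg2, Sim1 and Cldn11 reach the minimum of the rule, a mean over days 4 and 6, through their day 6 level and lie under it as a mean over all 7 libraries.

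The 10 largest falls by the same rule were Bcas2, Zc3h3, Acot9, Usp7, Usf2, Necap2, Alox15, Tmem39b, Chmp4b and Nr1h2. All but Usp7 and Chmp4b ended under the level of 3 reads on day 6, where a failed estimate is possible. Whether the day 6 levels of Usp7 and Chmp4b were failed estimates too was not tested. Usp7, a deubiquitinase that acts on Mdm2 and p53 (chromosome 16, 8689595 to 8792308, minus strand), went from 10.32 and 10.41 to 5.08, or 38.9-fold lower (-5.28, SE 0.14, adjusted p = 8.71e-05). Its level had been between 10.82 and 10.99 in the 4 libraries of days 0 and 2. Chmp4b, an ESCRT subunit, went from 8.44 and 8.24 to 4.09 (adjusted p = 0.00757). With every library at or above the level of 3 reads, a choice made after the values were seen, the next falls were Trh, Epha1, Ltbp4, Traf4, Pou5f1, Utf1, Arl2 and Smpd2. Epha1, an ephrin receptor, went from 8.16 and 8.17 to 4.33 (adjusted p = 0.00757), and Traf4, a signalling adaptor, from 8.45 and 7.86 to 4.61 (adjusted p = 0.0218).

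Some genes were listed at 0 on a single day. At 0 on day 6 and at or above the minimum level of 3.46 in both day 4 libraries stood 47 genes, and the reverse held for 12. By the rule for named genes, which leaves out predicted, ribosomal, histone and mitochondrial genes, the highest on day 4 were Grb7 (7.26 and 6.83), Ssna1 (6.70 and 6.36), Farsa (6.90 and 5.68), Sfswap (5.59 and 6.53), Ears2 (5.72 and 5.72) and Xrcc3 (5.50 and 5.82). Farsa and Ears2 encode aminoacyl-tRNA synthetases that cells need at all times, so these zeros carry the same doubt as that of Gapdh. By the same rule, the highest on day 6 among genes at 0 in both day 4 libraries were Napb (5.97), Syt6 (4.93), Slc17a8 (4.86), Slc10a4 (4.60), Colgalt2 (4.48) and Adcyap1 (4.33). Napb, Syt6, Slc17a8 and Slc10a4 belong to vesicle fusion and transmitter transport, and Adcyap1 encodes the neuropeptide PACAP. Napb did not pass (adjusted p = 0.0744) and was also listed at 0 in 3 of the 4 libraries of days 0 and 2, with 4.12 in the other.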

How the data were processed

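Polyadenylated RNA was sequenced from stranded mRNA libraries, per the labels' protocols. The authors deposited 1 table of natural log values, the natural log of 1 plus scaled reads, quantile normalized between libraries; unit and normalization were inferred from the values. Per the submitters' processing notes the build was GRCm38. Not given in the sources used here: aligner, counter and strand setting. Genes with overlapping, antisense or near-identical copies (Gapdh, Nanog, Pou5f1, Zscan4) are uncertain. All 7 columns were mapped (0 unmapped). Values were divided by the natural log of 2. Of 30590 rows, 103 of foreign sequence and 8674 at 0 throughout were left out. Day 6 was tested against day 4 with limma 3.58.1 (R 4.3.3; trend, robust, 1 mean per day, 3 residual degrees of freedom). With 2 replicates or fewer a day, p-values measure only the spread between these samples. On simulated data 18, 52, 74 and 88% of log2 changes of 1, 2, 3 and 4 were recovered (50 genes each of 21813), with 2 false calls. The simulated noise was normal, independent between genes and of the fitted spread, without a GC trend on day 6 or failed zeros. False calls from those sources were therefore not measured. Rough reads came from the value of 1 read. GC content is that of the longest GENCODE transcript (20614 genes matched), and the correction subtracted each library's lowess trend (span 0.3). The 69 lists (781 genes, 770 tested) are from general knowledge; members and lists were chosen with earlier results of these data known. Named genes were the 10 largest rises and falls past the threshold (day 6 outside both day 4 libraries, above 0 in all 3, mean level over days 4 and 6 of at least 3.46, without predicted, ribosomal, histone and mitochondrial genes), up to 5 called members per list, the 6 highest listed at 0 per direction and 24 fixed markers, beside which other list members are described by their values. Some members are counted in their lists and not reported here by name.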

Additional observations from a re-analysis of the deposited data

How the results depend on the processing

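Day 6 against day 4 gave 972 calls (278 higher, 694 lower). The mean-level filter gave 2200 (745 and 1455), genes with no exact 0 on days 4 and 6 gave 1925 (647 and 1278), a pseudocount of 8 gave 990 (445 and 545, 55.1% lower against 71.4%), and limma without trend or robust estimates gave 609 (362 and 247, 40.6% lower). Levels corrected for GC content gave 680 (167 and 513), and with the mean-level filter 1212 (348 and 864). Days 4 and 6 fitted alone gave 0 calls, 0 higher and 0 lower (1 residual degree of freedom, 3732 genes with an unadjusted p under 0.05, lowest adjusted p = 0.255). Without 1 library in turn the calls ran from 0 to 295, the higher from 0 to 24 and the lower from 0 to 271. Median centring and equal medians of deviations gave 980 and 1003. With the replicate number as a block, limma gave 606 (95 and 511, 84.3% lower). The day 6 library is labelled replicate 1. Deviations of replicate 1 from the day mean correlated at -0.058 (days 0 and 2), -0.066 (days 0 and 4) and 0.222 (days 2 and 4). These correlations do not decide whether libraries with the same number belong together, and the main fit treats them as unpaired. The count of day 6 beyond the day 4 spread, 3714, became 705 with a gap of 2, 7056 with a gap of 0.5, 1573 with a pseudocount of 8, 2344 without exact zeros and 1816 with the mean-level filter. For day 6 beyond the day 4 spread, higher, 1817 became 254, 3661, 585, 923 and 545 in that order. For day 6 beyond the day 4 spread, lower, 1897 became 451, 3395 and 988 under the first 3 of these, and 1089 on corrected levels. With a minimum of 5.04 on the other day, 13 genes were listed at 0 on day 6 and 2 in both day 4 libraries. Of the 151 named genes, 0 of those that had passed changed sign under these settings. Of those that had not passed, Hes5, Gli1 and Tubb3 changed sign on corrected levels (0.65, 0.94 and 0.58), Gli1, Tubb3 and Xist without day 4 replicate 1 (0.15, 0.63 and 0.04) and Dll1 without day 4 replicate 2 (-0.04). Many settings could hardly change a sign. Leaving out a day 0 or day 2 library leaves each difference as it was, and centring shifts all by the same small amount. A gene with day 6 outside both day 4 libraries keeps its sign when either is left out. Passing was less stable than sign. Without trend or robust estimates 75 of the named genes that had passed no longer did, with the replicate block 34 and on corrected levels 35. The causes of the shifts were not tested. The GC settings and the equal medians were added after the data were seen. The single day 6 library and its depth limit every result.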

Other observations

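Of 14 cholesterol synthesis genes 1 rose and 2 fell, at a median of 0.15, and day 6 lay above both day 4 libraries in 8 and below both in 6. Hmgcs1, at the start of the pathway, rose from 12.40 and 12.44 to 13.23 (adjusted p = 0.0412; 0.208 after the GC correction). Lss, the lanosterol synthase, fell from 8.77 and 8.93 to 6.89 (adjusted p = 0.0144), and Mvd fell from 8.05 and 8.07 to 6.35 (adjusted p = 0.0407; 0.106 on corrected levels). Of 11 p53 targets Eda2r rose (difference 1.04, adjusted p = 0.037), Bax fell (8.61 and 8.66 to 6.66, adjusted p = 0.0465), Fas had a listed 0 in each day 4 library and 2.72 on day 6 (adjusted p = 0.0433), and Cdkn1a did not pass (adjusted p = 0.926). None of these targets passed on corrected levels.

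None of 10 hypoxia genes and 11 immediate early genes passed limma's test, where 2 and 4 had an unadjusted p under 0.05, at medians of 0.51 and -0.62. Among ribosome biogenesis and Myc genes Polr1b fell (8.52 and 8.39 to 7.43, adjusted p = 0.0249), and Mycn was at 8.58, 8.69 and 8.26 (adjusted p = 0.236). Of 11 genes of the mitochondrial genome mt-Cytb rose (12.88 and 12.98 to 13.63, adjusted p = 0.0219), and 8 lay above both day 4 libraries. The median of that list, 0.51, was -0.06 on corrected levels, and its median GC content of 37.1% was low. Splicing factors showed Ptbp1, which represses neuronal exons, lower (10.90 and 10.71 to 9.42, adjusted p = 0.0322), with its neuronal relative Ptbp2 at 9.76, 9.28 and 10.25 (adjusted p = 0.156). Of the chromatin remodelling subunits, the stem cell set had 1 of 8 lower (Smarca4, 10.91 and 10.59 to 9.64, adjusted p = 0.0477) and the neuronal set 0 of 7 (1 with an unadjusted p under 0.05), with medians of -0.62 and 0.73 (0 passed in either, medians -0.28 and 1.07, on corrected levels). In the germ line list Tfap2c was at 0.88 and 0.25, under the level of 3 reads, on day 4 and at 3.73 on day 6 (adjusted p = 0.0338), and in the 2-cell-like list Zscan4f, of a family of near-identical copies, fell from 4.61 and 4.79 to 2.86 (adjusted p = 0.0444).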
